A study of Mus musculus with 6 samples.

Results

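The BCL2 family sets whether a T cell lives or dies through the mitochondrial pathway of apoptosis. Here 10 of its mouse genes were followed across 6 RNA sequencing libraries of CD4 T cells: the survival genes Bcl2, Bcl2l1, Mcl1, Bcl2a1b and Bcl2a1d, and the death genes Bcl2l11, Bbc3, Pmaip1, Bax and Bak1. The genes were a fixed list of names, matched by symbol to the Ensembl identifiers of the count files. All 10 were found among the 49315 identifiers, and all 10 were among the 12928 genes kept by a filter on low counts.

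The study used CBir1 TCR Tg CD4 T cells, which carry a transgenic receptor for a bacterial flagellin and the congenic marker CD45.1. Per the labels, C57BL/6 recipients carrying CD45.2 received 2000000 CD4+CD44- donor cells on day 0. They then received 50 ug of CBir1 flagellin with 1 ug of CT by the intraperitoneal route on days 1 and 7. MEP1 is given in the labels by that name alone, and CMC is the vehicle.

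The MEP1+Metformin+Rapamycin group (below, the combination) received 3 ug of MEP1 intravenously on days 28 and 35, each time followed by metformin and rapamycin in CMC for 5 consecutive days. The MEP1+Rapamycin group and the MEP1+Metformin group received the same MEP1 with 1 inhibitor in CMC. The MEP1+CMC group received MEP1 with CMC alone. The No treatment group received neither MEP1 nor an inhibitor on those days. Per the protocol text, every recipient was challenged with 3 ug of MEP1 on day 56 and killed on day 63, when the splenic donor cells were sorted. The heading of the No treatment count column speaks instead of no challenge, and the sample label was followed here. The naive CD4 control is labelled as naive CD4 cells of the spleen. Its record carries the same protocol text as the other samples, so whether these cells had any transfer or immunisation is not clear, and every comparison of transferred with naive cells rests on that label. Metformin raises AMP-activated kinase signalling and rapamycin inhibits the kinase mTORC1. Not given in the sources used here are the ages and sex of the mice and whether a library came from 1 mouse or a pool.

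BCL2, BCL-XL (Bcl2l1), MCL1 and the A1 proteins (Bcl2a1b and Bcl2a1d) sit on the mitochondrial outer membrane and hold death proteins in check. BIM (Bcl2l11), PUMA (Bbc3) and NOXA (Pmaip1) are BH3-only proteins that bind the survival proteins, and BAX and BAK (Bak1) form the pores that release cytochrome c. In T cells, BCL2 is kept up by cytokines such as IL-7, A1 is induced by receptor signalling through NF-kappaB, BIM drives the contraction of activated cells, and NOXA opposes MCL1 and A1. FOXO factors, which are held outside the nucleus by AKT signalling, are known to act on the BIM and PUMA genes.

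The letters of a FOXO site are shown for Bcl2l11 and Bbc3 because FOXO factors are known to act on these genes. RefSeq promoter windows (build GRCm38.p6, around each annotated start) were found for 9 of the 10 genes. These 9 genes have 14 promoter entries. GTAAACA was searched on both strands and occurred in 2 of the 9 genes, against 4.05% of 27025 genes. Capitals mark the match, at position -227 from the RefSeq start of Bcl2l11 (chr2:128125788-128125887, plus strand) and at -167 from that of Bbc3 (chr7:16310047-16310146, plus strand, read as the reverse complement). The Bbc3 window lies inside the outer bounds of the gene in the count files, between exons.
Bcl2l11: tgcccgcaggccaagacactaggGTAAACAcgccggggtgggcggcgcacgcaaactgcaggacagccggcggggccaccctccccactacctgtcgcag
Bbc3: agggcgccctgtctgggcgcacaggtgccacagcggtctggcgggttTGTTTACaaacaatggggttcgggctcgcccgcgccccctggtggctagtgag
On both strands, the STAT letters TTCNNNGAA were found in 0 of the 9 genes, against 9.55% of all genes, and the AP-1 letters TGAGTCA in 0 of the 9, against 5.95%. A match describes letters and not a bound site.

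The A1 genes are near-copies, and their upstream stretches show how alike they are. Capitals mark where the aligned stretches differ, which was 1 mismatched base in 136 and a gap of 6 bases (99.3% identity).
Bcl2a1b, chr9:89199023-89199164, plus strand: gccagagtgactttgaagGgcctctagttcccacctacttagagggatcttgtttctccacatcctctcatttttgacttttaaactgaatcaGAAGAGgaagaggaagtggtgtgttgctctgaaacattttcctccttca
Bcl2a1d, chr9:88731915-88732050, minus strand: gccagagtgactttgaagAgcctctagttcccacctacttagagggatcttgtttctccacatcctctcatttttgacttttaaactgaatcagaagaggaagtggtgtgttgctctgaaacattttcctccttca
Their GENCODE transcripts agreed at 810 of 817 aligned bases (99.1%). Of all 50-base windows, 57.6% of those in Bcl2a1b also occurred in Bcl2a1d, and 79.2% of those in Bcl2a1b and 79.5% of those in Bcl2a1d occurred in some other gene. How the counting treated such reads is not stated, so the split between the A1 genes is uncertain and their sum is given as well.

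There was 1 library per condition, so a pair of libraries has no replicate check. A level is given as TMM CPM, which is CPM (counts relative to the library total) after scaling with trimmed means of M values. A log2 ratio between libraries carries an exact 95% Clopper-Pearson interval that covers counting error only. The size rule asks for a ratio of 2-fold or more whose interval does not include 0 on the log2 scale. Tests came from 4 edgeR quasi-likelihood models that set several libraries together, called at an adjusted p below 0.05. Their p-values rest on the spread among the libraries, not on replicates of a condition.

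Totals ranged from 26139000 counts in the naive library to 60622310 in No treatment. Cd4 was at 553 TMM CPM or more in every library and lowest in the naive control. The 14 T cell identity genes, Cd4 among them, summed to 37368 to 56637 in the transferred libraries. Their sum was 122279 in the naive control, where Trbc2 was at 109194. Against MEP1+CMC, 0 of the 14 were above 0 (log2) in the combination, 5 in MEP1+Rapamycin and 1 in MEP1+Metformin. Their medians were -0.30, -0.18 and -0.35, against -0.0026, 0.030 and -0.0088 over all genes. Markers of other cells moved with the groups. The 14 macrophage markers summed to 493 to 728 TMM CPM in the 4 MEP1 libraries, against 3240 in No treatment and 67.7 in the naive control, and C1qa among them stood at 17.1 to 25.3, 99.0 and 3.85. The 8 erythroid markers summed to 59.7 to 387, 1630 and 385. The 9 B cell markers summed to 102 in the combination, 38.9 in MEP1+Rapamycin, 33.5 in MEP1+Metformin and 55.4 in MEP1+CMC, against 30.3 in No treatment and 123 in the naive control. Of the 8 kept, 7 were past the size rule and higher in the combination than in each other MEP1 library, and 7 were lower in No treatment than in the naive control. Of all genes, 6.86% passed in either direction in the combination against MEP1+CMC, 6.97% against MEP1+Rapamycin and 3.08% against MEP1+Metformin. In No treatment against the naive control, 8.2% were lower. The 9 neutrophil markers summed to 1.81 to 16.8 and were highest in the combination. There all 5 kept markers were past the rule against MEP1+CMC, where 6.86% of all genes were. The 7 CD8 and NK markers summed to 8.68 to 16.2 in the transferred libraries and 30.2 in the naive control, where Cd8b1 was at 24.6. Loci resembling ribosomal RNA held 1.00% to 3.13% of the counts of the 5 transferred libraries and 15.4% of the naive one. Xist, expressed from the inactive X chromosome, was at 0.218 to 0.532 TMM CPM in the 3 inhibitor libraries, against 257 in MEP1+CMC, with 23.0 in No treatment and 42.8 in the naive control. Xist thus differed in every comparison with MEP1+CMC, No treatment or the naive control, and there an effect of treatment and of the sex of the mice cannot be told apart. In bulk RNA, fewer cells with a transcript and less transcript per cell cannot be told apart either.

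**Figure D1:**
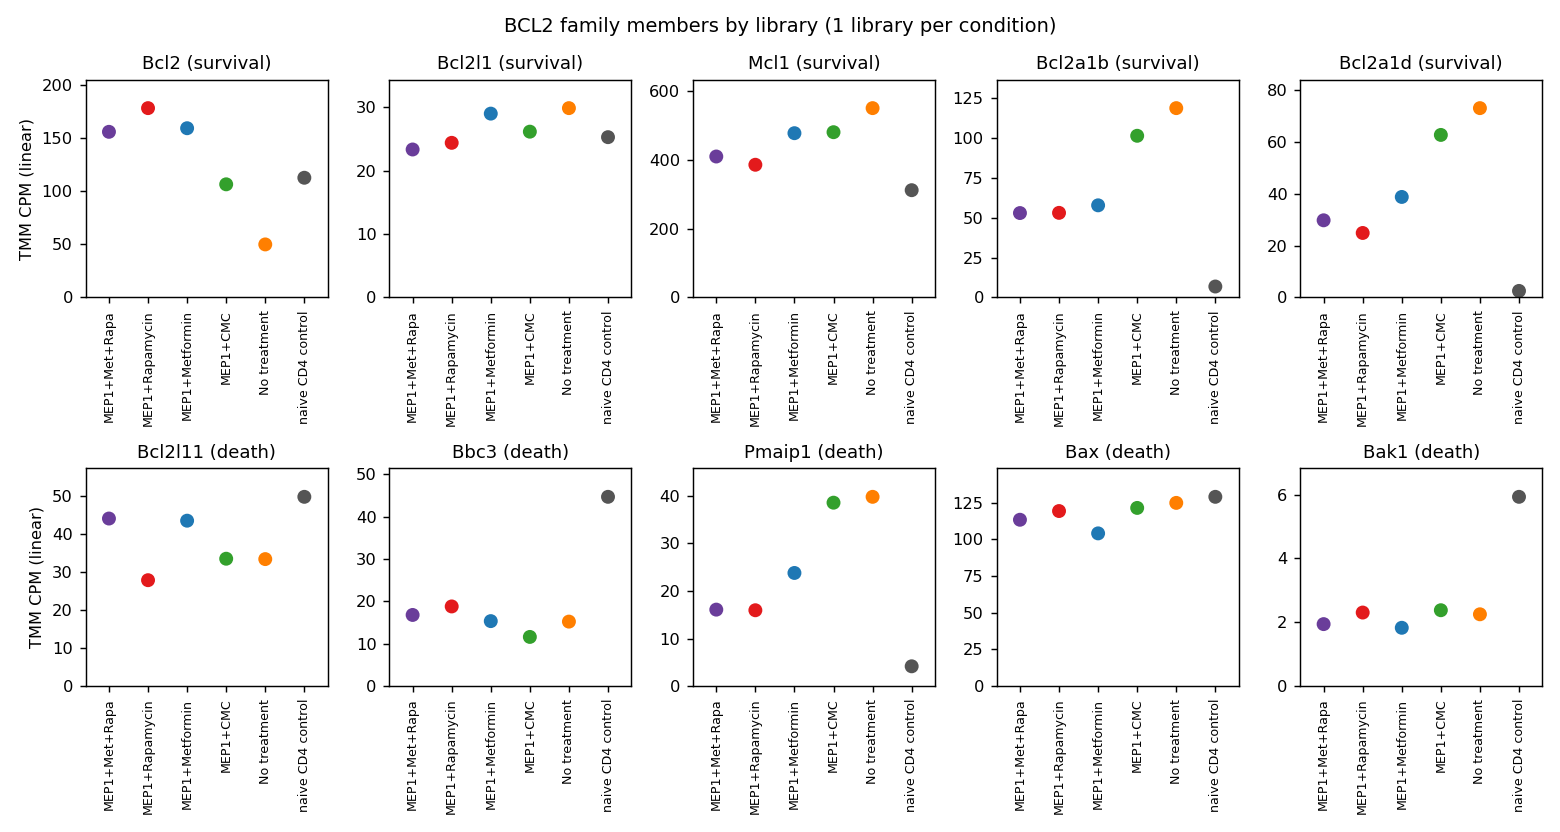
Level of each of the 10 genes (TMM CPM, linear axis from 0) in the 6 libraries, 1 point per library. Bcl2 was lowest in No treatment at 49.9 TMM CPM, Bcl2a1b, Bcl2a1d and Pmaip1 were lowest in the naive control, and Bcl2l1 and Bax stayed within a 1.28-fold range.

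Bcl2, whose protein is the main cytokine-maintained survival factor of resting T cells, showed the widest range of the 10 genes among the 5 transferred libraries (chr1:106538178-106714274, minus strand). Its level was 156 TMM CPM in the combination, 178 in MEP1+Rapamycin, 159 in MEP1+Metformin and 107 in MEP1+CMC, against 49.9 in No treatment and 113 in the naive control. Every MEP1 library was above No treatment, the 3 inhibitor libraries were above MEP1+CMC, and the naive control lay beside MEP1+CMC. The range of 1.84 (log2) over the transferred libraries compares with a median of 0.63 over all kept genes.

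MEP1+CMC held 2.13 times the Bcl2 level of No treatment, a log2 ratio of 1.09 (1.03 to 1.16). Bcl2 was the 1 gene of the 10 past the size rule in this comparison, where 12.2% of all genes passed. The log2 ratios to the same No treatment library were 1.67 (1.61 to 1.74) for MEP1+Metformin, 1.84 (1.77 to 1.90) for MEP1+Rapamycin and 1.64 (1.58 to 1.70) for the combination. Set against No treatment in a model, the 4 MEP1 libraries were higher in Bcl2 by 1.59 (log2, SE 0.30, edgeR quasi-likelihood adjusted p = 0.0471). Bcl2 was again the 1 gene of the 10 called, against 1.35% of all genes.

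That call lies close to the threshold, and it was kept in 5 of 10 alternatives. Without MEP1+Metformin, MEP1+Rapamycin or the combination the edgeR adjusted p was 0.0938, 0.0641 and 0.0911, and it was 0.0149 without MEP1+CMC. Scaling by library totals gave 0.0501 and a stricter filter 0.0588, while the log2 change stayed between 1.49 and 1.72 over 10 alternatives. The macrophage marker sum was lower in each MEP1 library than in No treatment, and its part in the Bcl2 difference was not tested. An opposite-strand gene, D630008O14Rik, overlaps 6.09% of the Bcl2 exons, and its counts were 9 to 216 against 2110 to 8834 for Bcl2.

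Against MEP1+CMC, Bcl2 was above 0 on the log2 scale in each inhibitor library without passing the size rule: 0.55 (0.50 to 0.60) in the combination, 0.74 (0.69 to 0.79) in MEP1+Rapamycin and 0.58 (0.53 to 0.63) in MEP1+Metformin. The 3 ratios share the MEP1+CMC library. The combination differed from MEP1+Metformin by -0.03 (-0.07 to 0.01) and from MEP1+Rapamycin by -0.19 (-0.24 to -0.15). In the additive model of the 4 MEP1 libraries, the rapamycin term for Bcl2 was 0.35 (log2, SE 0.19, edgeR adjusted p = 0.724) and the metformin term 0.19 (SE 0.19, edgeR adjusted p = 0.764), so neither passed.

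Bcl2a1b and Bcl2a1d, the A1 genes that antigen receptor signalling induces, had the largest ratios to the naive control of the 10 genes (Bcl2a1b at chr9:89199209-89207827, plus strand; Bcl2a1d at chr9:88723285-88731914, minus strand). Bcl2a1b was at 52.9 TMM CPM in the combination, 53.0 in MEP1+Rapamycin, 57.7 in MEP1+Metformin and 101 in MEP1+CMC, against 119 in No treatment and 6.84 in the naive control. Bcl2a1d was at 29.8, 24.9, 38.8 and 62.8 in the same 4 MEP1 libraries, against 73.1 in No treatment and 2.51 in the naive control. The libraries fell into 3 levels for both genes: highest in No treatment and MEP1+CMC, lower in the 3 inhibitor libraries, and lowest in the naive control.

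No treatment held 17.4 times the naive level of Bcl2a1b (log2 4.12, 3.87 to 4.38) and 29.1 times that of Bcl2a1d (log2 4.86, 4.45 to 5.31). Summed, the A1 genes differed by 4.36 (4.14 to 4.58). In the model of the 5 transferred libraries against the naive one, Bcl2a1b rose by 3.49 (log2, SE 0.70, edgeR adjusted p = 0.0239) and Bcl2a1d by 4.20 (SE 0.96, edgeR adjusted p = 0.0379). Bcl2a1b kept its call under all 11 alternatives. Bcl2a1d lost it without the filter (edgeR adjusted p = 0.112), without MEP1+Metformin (0.0788) and without the combination (0.0511).

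Against MEP1+CMC, Bcl2a1d was lower in the combination, at -1.08 (log2, -1.16 to -0.99), and in MEP1+Rapamycin, at -1.33 (-1.44 to -1.23), both past the size rule. It stood at -0.69 (-0.77 to -0.61) in MEP1+Metformin, short of the rule. Bcl2a1b stood at -0.94 (upper bound -0.87), -0.93 (-1.01 to -0.86) and -0.81 (-0.88 to -0.75) in the same order, short of 2-fold in each. Summed, the A1 genes gave -0.99 (-1.04 to -0.94), -1.07 (-1.14 to -1.01) and -0.77 (-0.82 to -0.72). The combination was within -0.13 (-0.20 to -0.05) of MEP1+Metformin for Bcl2a1b and at -0.38 (-0.48 to -0.29) for Bcl2a1d.

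The ratio of Bcl2a1b to Bcl2a1d per kilobase was 1.57 to 2.25 across the 5 transferred libraries and 2.88 (2.06 to 4.02) in the naive control, where Bcl2a1d had 47 counts. A same-strand gene model, Gm29094, covers 49.1% of the Bcl2a1b exons and had 2 to 99 counts. Another copy, Bcl2a1a, was at 3.20 to 4.27 TMM CPM in the MEP1 libraries, against 11.5 in No treatment and 0.48 in the naive control. Bcl2a1a fell in the MEP1 libraries against No treatment (log2 -1.69, SE 0.29, edgeR adjusted p = 0.0366), and 11 of the 14 macrophage markers fell in the same model. That model called 1.35% of all genes in either direction. The part of myeloid cells, which also transcribe A1 genes, in these A1 levels was not tested. Between MEP1+CMC and No treatment, whose macrophage sums were 728 and 3240, the summed A1 genes differed by -0.22 (log2, -0.26 to -0.19).

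Mcl1 and Bcl2l1 varied less. Mcl1, a short-lived survival protein that T cells need at all stages (chr3:95658788-95663176, plus strand), was at 410 TMM CPM in the combination, 386 in MEP1+Rapamycin, 478 in MEP1+Metformin and 481 in MEP1+CMC, against 551 in No treatment and 312 in the naive control. Every transferred library was above the naive one, and the log2 ratio of No treatment to naive was 0.82 (0.78 to 0.86), short of the size rule. The model change of the transferred libraries was 0.56 (SE 0.25, edgeR adjusted p = 0.173). With library totals it was 1.14 (edgeR adjusted p = 0.0192) and the ratio of No treatment to naive was 1.30, past the rule. Against MEP1+CMC, Mcl1 stood at -0.23, -0.32 and -0.01 (log2) in the combination, MEP1+Rapamycin and MEP1+Metformin.

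Bcl2l1 encodes BCL-XL, a survival protein raised by costimulation (chr2:152780668-152831728, minus strand). It was at 23.3 to 29.0 TMM CPM in the MEP1 libraries, against 29.8 in No treatment and 25.3 in the naive control. These 6 levels lay within 1.28-fold, and no comparison put Bcl2l1 past the size rule.

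Among the BH3-only genes, Pmaip1, which encodes NOXA, followed the A1 pattern (chr18:66458604-66465550, plus strand). It was at 16.1 TMM CPM in the combination, 15.9 in MEP1+Rapamycin, 23.8 in MEP1+Metformin and 38.6 in MEP1+CMC, against 39.8 in No treatment and 4.17 in the naive control. No treatment and MEP1+CMC were level with each other, the rapamycin-containing libraries were lowest of the transferred ones, and MEP1+Metformin lay between. No treatment held 9.55 times the naive level (log2 3.26, 2.93 to 3.60), from 78 counts in the naive library.

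Against MEP1+CMC, Pmaip1 was lower in the combination, at -1.26 (log2, -1.37 to -1.15), and in MEP1+Rapamycin, at -1.27 (-1.41 to -1.14), both past the size rule, and stood at -0.70 (-0.80 to -0.60) in MEP1+Metformin. The combination differed from MEP1+Metformin by -0.56 (-0.69 to -0.44), a comparison that does not use MEP1+CMC, and from MEP1+Rapamycin by 0.01 (-0.14 to 0.17). The B cell marker sum was 102 in the combination, against 33.5 in MEP1+Metformin and 38.9 in MEP1+Rapamycin, and its part in these differences and in those of the A1 genes was not tested. The rapamycin term for Pmaip1 was -0.92 (log2, SE 0.22), the smallest unadjusted p of the 10 genes in that model, and did not pass over all genes (edgeR adjusted p = 0.194, 0.130 to 0.897 over 6 alternatives). In the model of transferred against naive libraries, Pmaip1 stood at 2.70 (SE 0.81, edgeR adjusted p = 0.0743). It passed in 5 of 11 alternatives there, among them DESeq2 and the fit without No treatment (edgeR adjusted p = 0.0334).

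Bbc3, which encodes the p53 and FOXO target PUMA, went the other way (chr7:16308393-16318205, plus strand). It was at 16.8 TMM CPM in the combination, 18.8 in MEP1+Rapamycin, 15.3 in MEP1+Metformin and 11.6 in MEP1+CMC, against 15.2 in No treatment and 44.7 in the naive control. The naive level was above that of every transferred library. The log2 ratio of No treatment to naive was -1.55 (-1.69 to -1.42), past the size rule. Bbc3 fell by 1.53 in the transferred libraries (log2 -1.53, SE 0.25, edgeR adjusted p = 0.0098), a call kept under all 11 alternatives. Against MEP1+CMC, Bbc3 was at 0.53, 0.70 and 0.40 (log2) in the combination, MEP1+Rapamycin and MEP1+Metformin, short of the rule in each.

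Bcl2l11, which encodes BIM, the main killer of T cells deprived of cytokine, stayed within 1.79-fold (chr2:128126038-128162547, plus strand). It was at 44.0 TMM CPM in the combination, 27.8 in MEP1+Rapamycin, 43.4 in MEP1+Metformin and 33.4 in MEP1+CMC, against 33.3 in No treatment and 49.7 in the naive control. The libraries given metformin lay above the other transferred ones. The combination was above MEP1+Rapamycin by 0.66 (log2, 0.55 to 0.77), and MEP1+Metformin above MEP1+CMC by 0.38 (0.29 to 0.47), both short of the size rule. The metformin term was 0.52 (SE 0.17, edgeR unadjusted p = 0.0102, adjusted p = 0.334, and 0.252 to 0.893 over the 5 alternatives that gave one), which did not pass.

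The pore formers were flat among the transferred libraries. Bax (chr7:45461697-45466898, minus strand) was at 104 to 121 TMM CPM in the MEP1 libraries, against 125 in No treatment and 129 in the naive control, and no comparison put it past the size rule. Bak1 (chr17:27019810-27029009, minus strand) was at 1.83 to 2.38 TMM CPM in the MEP1 libraries, against 2.25 in No treatment and 5.93 in the naive control, from 78 to 142 counts per library. The naive level of Bak1 was above all others, and the log2 ratio of No treatment to naive was -1.40 (-1.77 to -1.02). The model change in the transferred libraries was -1.47 (SE 0.46, edgeR adjusted p = 0.0790), short of the threshold. Whether Bak1 passed there depended on the method, and its log2 change was -1.52 to -0.90 over 10 alternatives. An opposite-strand gene, Ggnbp1, overlaps 14.8% of the Bak1 exons and had 25 to 103 counts. With no strand setting stated, reads of the pair cannot be told apart and the Bak1 level is uncertain.

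Counted over the 10 genes, No treatment against the naive control gave 6 past the size rule, against 23.8% of all genes. Bcl2a1b, Bcl2a1d and Pmaip1 were 3 higher, against 15.6% of all genes, and Bcl2, Bbc3 and Bak1 were 3 lower, against 8.2%. The log2 ratio of Bcl2 was -1.18 (-1.26 to -1.09). With library totals, which move the median gene of this pair by 0.48 (log2), Bcl2 (-0.70) and Bak1 (-0.92) were no longer past the rule. The other 4 transferred libraries against the same naive library gave 5 genes each, against 30.9% of all genes in the combination, 26.9% in MEP1+Rapamycin, 33.5% in MEP1+Metformin and 29.6% in MEP1+CMC. The sign of all 5 was shared with No treatment, and Bcl2 was not among them, at -0.08 (log2) in MEP1+CMC to 0.66 in MEP1+Rapamycin. Set together against the naive library, the 5 transferred libraries differed in Bcl2 by 0.20 (log2, SE 0.60, edgeR adjusted p = 0.841).

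The model of transferred against naive libraries called 3 of the 10 genes, against 10.4% of all genes (4.51% higher and 5.87% lower). With library totals the model called 2427 genes higher and 182 lower, so this split depends on the scaling. Leaving out the ribosomal-like loci moved the median gene of No treatment against naive by -0.0054 (log2). The part of the 15.4% of such counts in the naive library in these levels was not tested.

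Against MEP1+CMC, 2 of the 10 genes passed the size rule in the combination (6.86% of all genes), 2 in MEP1+Rapamycin (11.9%) and 0 in MEP1+Metformin (5.87%). They were Bcl2a1d and Pmaip1 in both, and lower in both. The combination gave 0 of 10 against MEP1+Metformin (3.08% of all genes) and 0 of 10 against MEP1+Rapamycin (6.97%). By edgeR, the metformin term called 0 of the 10 genes (0.124% of all genes) and the rapamycin term 0 (0.232%). DESeq2 called 0 of the 10 for rapamycin, and for metformin it gave an adjusted p to 1 of the 10, Mcl1, which was not called. At an unadjusted edgeR p below 0.05 there were 1 for metformin, Bcl2l11, and 3 for rapamycin, Bcl2a1b, Bcl2a1d and Pmaip1.

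**Figure D2:**
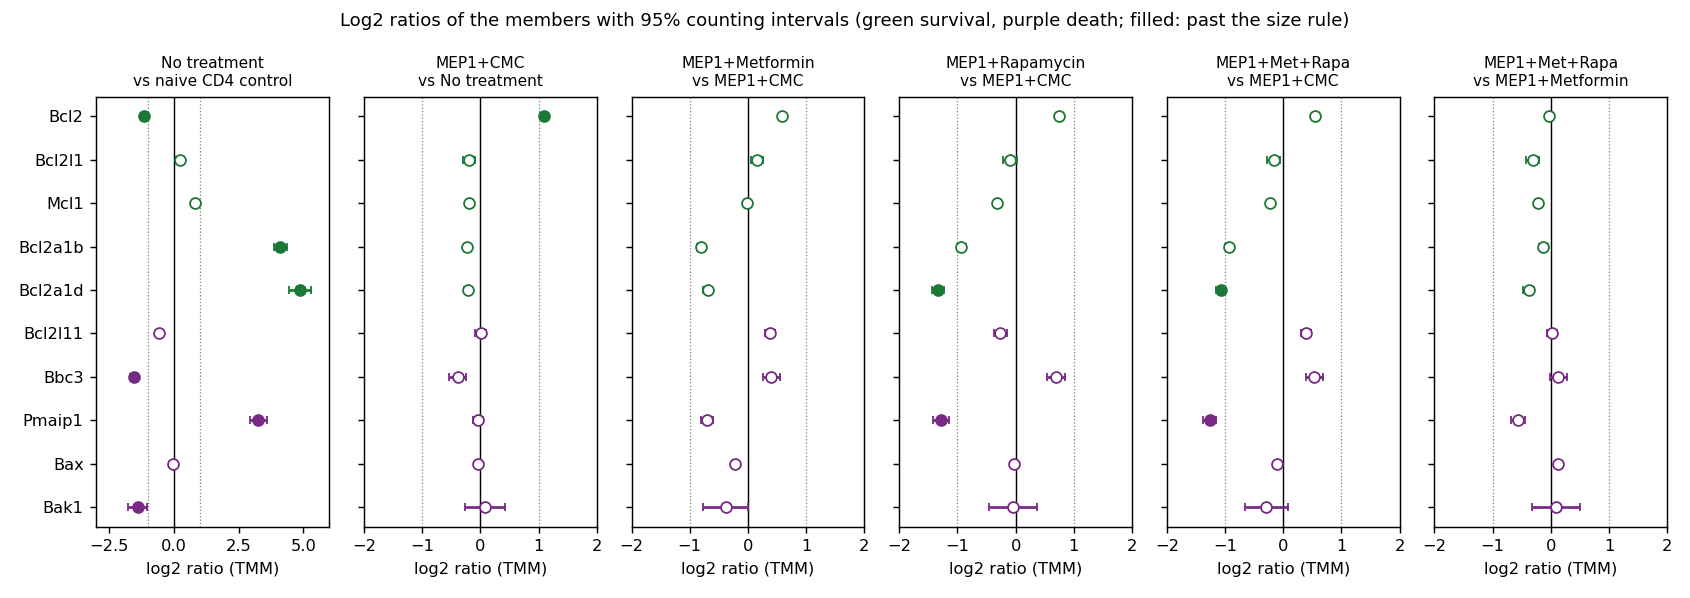
Log2 ratio of each gene in 6 pairs of libraries, with 95% counting intervals. Green marks survival genes, purple death genes, filled points passed the size rule and dotted lines mark 2-fold, and the axis of the comparison with the naive control is wider than the rest. The ratios to MEP1+CMC have Bcl2 to the right of 0 and Bcl2a1b, Bcl2a1d and Pmaip1 to its left in all 3 inhibitor libraries.

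Read against No treatment, which these comparisons share, Bcl2 was higher in all 4 MEP1 libraries. A1 and NOXA transcripts were lower in every inhibitor library, all of them past the size rule only in those given rapamycin. MEP1+Rapamycin and the combination each had 4 of 10 genes past the size rule, against 17.0% and 13.9% of all genes, with Bcl2 higher and Bcl2a1b, Bcl2a1d and Pmaip1 lower. MEP1+Metformin had 2 (14.7% of all genes), Bcl2 higher and Bcl2a1b lower at -1.04 (log2, -1.10 to -0.98). Bcl2a1d stood at -0.91 (-0.99 to -0.84) there, short of the rule. The macrophage marker sum was 493 to 728 TMM CPM in the MEP1 libraries, against 3240 in No treatment, and Xist also differed between them, so the parts of other cells and of sex in these ratios were not tested. The log2 ratios of Pmaip1 were -1.31 in the combination, -1.32 in MEP1+Rapamycin, -0.74 in MEP1+Metformin and -0.05 in MEP1+CMC.

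Levels can be compared between genes per kilobase of exon. Among survival genes, Mcl1 was at 113 to 141 TMM CPM per kilobase in the MEP1 libraries. It was at 161 in No treatment and 91.4 in the naive control. Counted singly, Mcl1 was the highest survival gene in every library, but the split between the A1 genes is uncertain. Per kilobase, Bcl2a1b and Bcl2a1d were at 145 and 84.7 in No treatment and at 124 and 72.8 in MEP1+CMC. The sum of the A1 genes was above Mcl1 in these libraries and below it in the others. Bcl2 per kilobase was 0.142 of Mcl1 in the combination, 0.172 in MEP1+Rapamycin, 0.124 in MEP1+Metformin and 0.0826 in MEP1+CMC, against 0.0338 in No treatment and 0.135 in the naive control. The ratio of Bcl2 to Bcl2l11 was 3.11 (2.97 to 3.25), 5.62 (5.25 to 6.02), 3.22 (3.07 to 3.37) and 2.79 (2.66 to 2.94) in the same 4 MEP1 libraries, against 1.31 (1.24 to 1.39) in No treatment and 1.99 (1.84 to 2.15) in the naive control. MEP1+Rapamycin thus had the highest ratio of BCL2 to BIM transcript, with counting intervals apart from every other library.

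Mcl1 over its antagonist Pmaip1 gave 19.8 (18.5 to 21.1) in the combination, 18.8 (17.2 to 20.4) in MEP1+Rapamycin, 15.6 (14.7 to 16.5) in MEP1+Metformin and 9.66 (9.26 to 10.1) in MEP1+CMC, against 10.7 (10.3 to 11.2) in No treatment and 58.0 (46.4 to 72.6) in the naive control. The intervals of the combination and MEP1+Rapamycin overlap, and the naive control lay far above the rest. The death genes were led by Bax, at 66.0 to 79.2 TMM CPM per kilobase in the transferred libraries and 81.8 in the naive control, while Bak1 stayed at or below 2.46.

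The balance was taken as the mean log2 level per kilobase of the 5 survival genes minus that of the 5 death genes. It was 2.11 (2.05 to 2.18) in the combination, 2.14 (2.05 to 2.22) in MEP1+Rapamycin, 2.29 (2.22 to 2.36) in MEP1+Metformin and 2.34 (2.28 to 2.40) in MEP1+CMC, against 2.21 (2.15 to 2.27) in No treatment and 0.37 (0.24 to 0.51) in the naive control. The 5 transferred libraries lay within a narrow band, and the naive control lay far below. No treatment differed from naive by 1.84 (1.69 to 1.98). Without the A1 genes the same difference was 0.03, with 1.16 in No treatment and 1.13 in the naive control, so for this pair it rested on Bcl2a1b and Bcl2a1d. The MEP1 libraries stayed above the naive control without the A1 genes. They were at 1.67 in the combination, 1.76 in MEP1+Rapamycin, 1.82 in MEP1+Metformin and 1.47 in MEP1+CMC.

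Among the transferred libraries the direction depended on the definition. Against MEP1+CMC, the balance differed by -0.23 (-0.31 to -0.14) in the combination, -0.21 (-0.31 to -0.11) in MEP1+Rapamycin and -0.05 (-0.14 to 0.04) in MEP1+Metformin. Without the A1 genes these differences were 0.20, 0.29 and 0.34, and from summed levels they were -0.41, -0.51 and -0.14. MEP1+CMC differed from No treatment by 0.13 (0.05 to 0.21), by 0.31 without the A1 genes and by -0.13 from summed levels. The summed survival level per kilobase was 241, 232, 279 and 355 in the combination, MEP1+Rapamycin, MEP1+Metformin and MEP1+CMC, against 403 in No treatment and 120 in the naive control. The summed death level spanned 88.4 to 113 over all 6 libraries.

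**Figure D3:**
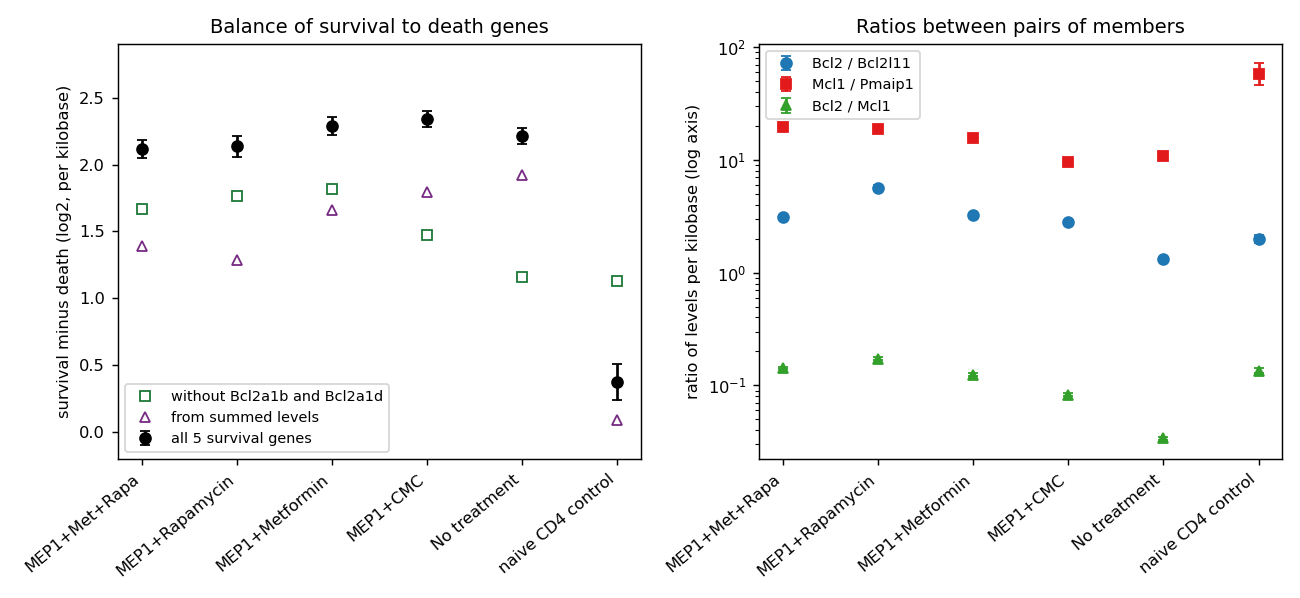
Left, balance of survival to death genes (log2, per kilobase) in the 6 libraries, filled circles with 95% counting intervals for all 5 survival genes, squares without Bcl2a1b and Bcl2a1d, triangles from summed levels. Right, ratios of levels per kilobase on a log axis, with the ratio of Bcl2 to Bcl2l11 highest in MEP1+Rapamycin at 5.62 and that of Mcl1 to Pmaip1 highest in the naive control at 58.0.

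The rest of the pathway was read from lists of related genes. Of 16 other BCL2 family genes, 10 were kept. Against the naive control, 3 of the 10 were higher in No treatment, where 15.6% of all genes were: Bcl2a1a at 4.58 (log2), Bik, a BH3-only gene, at 1.82, and Bcl2l15 at 2.70 or more, since it had no count in the naive library and the ratio rests on a floor of 3 counts. The median of the list was 0.17, against 0.03 over all genes. Bcl2l15 was at 1.02 TMM CPM in the combination, 0.83 in MEP1+Rapamycin, 0.87 in MEP1+Metformin and 3.62 in MEP1+CMC, against 1.04 in No treatment. It was thus highest in MEP1+CMC, at 1.79 (log2) over No treatment and with log2 ratios to that library of -1.82, -2.13 and -2.05 in the combination, MEP1+Rapamycin and MEP1+Metformin.

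Of 7 survival cytokine receptor genes, all kept, the model of transferred against naive libraries called 3, against 10.4% of all genes. Il2rb, the IL-2 and IL-15 receptor beta chain, rose by 2.61 (log2, SE 0.44, edgeR adjusted p = 0.0105) and Il15ra, the IL-15 receptor alpha chain, by 1.80 (SE 0.45, edgeR adjusted p = 0.0406). Il4ra, the IL-4 receptor alpha chain, fell (log2 -1.89, SE 0.27, edgeR adjusted p = 0.0058). Il7r, the IL-7 receptor alpha chain, was at 386 TMM CPM in the combination, 366 in MEP1+Rapamycin, 321 in MEP1+Metformin and 185 in MEP1+CMC, against 220 in No treatment and 290 in the naive control. The inhibitor libraries had the highest Il7r levels, and the combination was past the size rule against MEP1+CMC (log2 1.06, 1.03 to 1.10). Il2ra was at 12.5 TMM CPM in the combination, 23.9 in MEP1+Rapamycin, 15.7 in MEP1+Metformin and 13.6 in MEP1+CMC. Its levels were 5.13 in No treatment and 4.91 in the naive control. MEP1+CMC was past the size rule against No treatment for this gene (log2 1.41). Il2rb (-1.06) and Il15ra (-1.04) were lower in MEP1+Rapamycin than in MEP1+CMC. The list median in MEP1+Rapamycin against MEP1+CMC was 0.14, against 0.03 over all genes.

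Of 13 transcription factors upstream of these genes, 12 were kept and the same model called 3, against 10.4% of all genes. Nfkb1, a subunit of the NF-kappaB factor that drives A1, rose by 1.04 (log2, SE 0.26, edgeR adjusted p = 0.0393). Trp53, the p53 gene (log2 -0.84, SE 0.17, edgeR adjusted p = 0.019), and Myc (log2 -1.36, SE 0.29, edgeR adjusted p = 0.0231) fell. E2f1, a cell cycle factor, was higher in No treatment than in the naive control (log2 1.72) and lower in MEP1+CMC than in No treatment (-1.05). The median of the list in this model was -0.25, against 0.08 over all genes.

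Of 7 genes listed as caspase inhibitors, 6 were kept and 1 was called in the model of transferred against naive libraries, against 10.4% of all genes. Naip2 rose by 3.03 (log2, SE 0.39, edgeR adjusted p = 0.0043). It carries the BIR domains of the family and is known as a sensor of bacterial proteins. Of 9 genes that control turnover of the MCL1 and BIM proteins, all kept, the same model called 1, Mapk3, the kinase ERK1, which fell (log2 -1.24, SE 0.21, edgeR adjusted p = 0.0114). The list medians were 0.30 and 0.16, against 0.08 over all genes.

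Likeness of profiles over the 6 libraries was the root mean square difference of centred log2 TMM CPM, with 0.5 added, among the 12928 kept genes. The genes most like Bcl2 were Gm15787 (0.098), Egfl8 (0.12) and C230096K16Rik (0.12). The added 0.5 narrows the range of genes at low levels. Gm15787 was at 0.23 TMM CPM in No treatment and 2.27 in MEP1+Rapamycin, and Egfl8 at 0.26 and 2.69. Those most like Pmaip1 were Tnf (0.17), Gm9885 (0.17) and Dram1 (0.19), of which Gm9885 and Dram1 were at 0 in the naive control. Those most like Bcl2a1d were Adap1 (0.14), B4galnt4 (0.24) and Bcl2a1b (0.25). Tnf was at 24.8 TMM CPM in the combination, 22.2 in MEP1+Rapamycin, 42.6 in MEP1+Metformin and 50.2 in MEP1+CMC, against 66.3 in No treatment and 5.77 in the naive control. With 6 libraries and this many genes, such likeness is a description.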

How the data were processed

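RNA sequencing of 6 mouse libraries, 1 per condition, was used, with groups taken from the treatment labels. The authors deposited raw read counts per gene over exons, and the file headers show a featureCounts table. Subread 1.5.2, STAR 2.5.2b and Trimmomatic 0.36 are named with build GRCm38, per the submitters' processing notes. Not given in the sources used here are the strand setting and the treatment of multiply aligned reads, which bears on the A1 genes and Bak1. Symbols came from GENCODE M21, which named 49056 of the 49315 identifiers.

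Genes were kept with at least 2 CPM and at least 10 counts in at least 1 library. Counts were scaled by TMM over the kept genes (factors 0.716 in the naive library and 0.997 to 1.13 in the others) in edgeR 4.0.16 under R 4.3.3. Ratios between libraries came with exact 95% Clopper-Pearson intervals of the counts, which leave out all but counting error. With no molecular identifiers, reads are not independent molecules. For ratios between genes and for the balance, 95% intervals came from a normal approximation to counting error. It took the genes, the A1 genes among them, as independent. A count of 0 was set to a floor of 3. The 7 pairs of libraries share libraries with each other.

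The 4 models used glmQLFit and glmQLFTest (robust) with Benjamini-Hochberg adjustment over 12928 genes: 5 transferred libraries against naive (4 residual degrees of freedom), 4 MEP1 libraries against No treatment (3), and a metformin and a rapamycin term fitted additively (1). Their spread also holds treatment differences on the same side, and a side with 1 library takes its variation from the others. The scripts were tested on simulated counts. Alternatives were DESeq2 1.42.0 size factors and Wald test, library totals, no filter, a filter of 10 CPM, ribosomal-like loci removed, the earlier edgeR quasi-likelihood method, summed A1 genes, and leaving out each library. All 10 genes are described. Of the other lists, genes past the size rule or called by a model are named, at most 4 per list and comparison. Some genes are not reported here. The members, lists and tests were chosen with earlier results of these data known.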

Additional observations from a re-analysis of the deposited data

How the results depend on the processing

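Of the member ratios under the alternative scalings and filters, 223 stayed within their counting interval and 57 did not. Library totals moved the median gene by 0.48 (log2) in No treatment against naive and by 0.11 to 0.12 in MEP1+Metformin and the combination against MEP1+CMC and the combination against MEP1+Rapamycin. No filter moved it by -0.16 in MEP1+Rapamycin against MEP1+CMC and by 0.15 in the combination against MEP1+Rapamycin, and put Bcl2a1b past the size rule in MEP1+Rapamycin against MEP1+CMC (-1.09).

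In the combination against MEP1+CMC, 1 gene passed the size rule with library totals and 1 with the A1 genes summed, against 2. The balance of No treatment minus naive was 0.025 without the A1 genes. MEP1+CMC minus No treatment was -0.13 from summed levels and 0.31 without the A1 genes. Minus MEP1+CMC, the combination was -0.41 from summed levels and 0.20 without the A1 genes, MEP1+Rapamycin -0.51 and 0.29, and MEP1+Metformin 0.34 without them. From summed levels, the combination was -0.27 minus MEP1+Metformin and 0.10 minus MEP1+Rapamycin.

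In the model of transferred against naive libraries, 5 of the 10 genes were called with library totals, 5 with the earlier quasi-likelihood method and 5 with DESeq2, and 2 to 5 when a library was left out, with 5 without No treatment. Among all genes it called 1342, against 2609 with library totals, 2361 with the earlier method, 3771 with DESeq2 and 645 to 2840 when a library was left out. In the model of MEP1 against No treatment, 0 of the 10 were called with library totals, 0 with a stricter filter and 0 to 2 when a library was left out, with Bcl2 and Bcl2a1b called without MEP1+CMC. Among all genes it called 175, against 297 without a filter, 83 with a stricter one, 1130 with DESeq2 and 73 to 344 when a library was left out. The metformin term called 16 genes, against 0 without a filter, 5 with a stricter one and 42 with DESeq2, which gave 9 of the 10 members no adjusted p in that term. The rapamycin term called 30, against 0, 12 and 74, and 19 with library totals.

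With library totals, Bcl2l11 (0.14) and Bax (0.43) turned positive in the transferred model and Bak1 (0.029) in the MEP1 model. Bbc3, at 0.033 in the MEP1 model, turned to -0.063 without MEP1+Rapamycin and -0.0035 without the combination, and was 0.16 without MEP1+CMC. None of these was called. The cause of these moves was not tested. No paired analysis was possible because each condition has 1 library and the labels give no replicate numbers. Leaving out a library was not run for the metformin and rapamycin terms, where no residual degree of freedom would remain. Depth limits Bak1 in all libraries and Bcl2a1d and Pmaip1 in the naive one, with 47 and 78 counts.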
